A study of Mus musculus with 8 samples.

Results

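The subject is base excision repair downstream of TET oxidation, followed through 10 genes chosen by name: the DNA glycosylases *Tdg*, *Mbd4*, *Smug1*, *Neil1*, *Neil2* and *Neil3*, the abasic site endonuclease *Apex1*, the scaffold *Xrcc1*, the ligase *Lig3* and the ADP-ribose polymerase *Parp1*. All 10 were found among the 54281 genes of the deposited tables, each in a single row. Poly(A) RNA was sequenced from epiblast-like cells (EpiLCs), a formative pluripotent state obtained from naive mouse embryonic stem cells after 2 days with 12 ng/ml bFGF and 1% knockout serum replacement on fibronectin. The groups are the *Tet1* knockout (KO) lines KO1, KO9, KO15 and KO25, wild-type (WT) lines WT7, WT12, WT17 and WT34, and the column suffixes b2 (KO15, KO25, WT12, WT34) and b1 (KO1, KO9, WT7, WT17).

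All lines were male, derived from blastocysts of the B6129S6F1 Tet1<tm1Koh> strain, and so of mixed B6 and 129S6 background. The methods speak of littermate pairs of KO and WT lines, and which KO line shares a litter with which WT line is not given in the sources used here. Each line gave 1 library, and p-values therefore measure the spread between lines. What the suffix stands for is not given in the sources used here, and it is called a suffix throughout. The library titled WT12 carries WT9 as its cell line label and the library titled WT17 carries WT12; titles are used here.

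TET enzymes oxidize 5-methylcytosine stepwise to 5-hydroxymethylcytosine, 5-formylcytosine and 5-carboxylcytosine. TDG cuts the formylated and carboxylated bases from the DNA, and the abasic site left behind is opened by APEX1, filled by a polymerase and sealed by the XRCC1-LIG3 complex, with PARP1 sensing the strand break and drawing XRCC1 to it. In pluripotent cells this route restores unmodified cytosine at enhancers and promoters without replication.

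Library totals ranged from 13916576 to 23680839 counts, and 17272 genes passed the low-count filter. Levels are given as TPM, a share of all transcripts that allows for transcript length, or as CPM, the count relative to the library total after TMM scaling. *Tet1* had 45.3, 38.5, 53.5 and 54.2 CPM in KO lines, against 816.5, 558.7, 775.0 and 851.4 CPM in WT lines, so every library matched its genotype label. EpiLC markers summed to 771.0 to 836.8 TPM in KO lines and 704.9 to 872.1 TPM in WT lines. Most of this was *Pou5f1* (411.8 to 512.0 TPM) and *Dnmt3b* (217.9 to 270.5 TPM), while *Fgf5* had 7.475 to 18.8 TPM over the lines. Naive markers summed to 29.9 to 42.9 TPM in KO lines and 21.1 to 49.5 TPM in WT lines. Feeder fibroblast markers summed to 76.9 to 114.1 TPM in KO lines and 83.0 to 106.6 TPM in WT lines. Of these 10 markers 6 were below 1 TPM in every line, among them *Postn* at 0 in every line. The others were *Fn1* (65.6 to 86.6 TPM), *Thy1* (3.63 to 28.3 TPM), *Dcn* (0.746 to 4.12 TPM) and *Col3a1* (0 to 1.16 TPM). Whether their transcripts came from feeder cells was not tested. Of 10 extraembryonic endoderm markers 9 were below 1 TPM in every line, and *Dab2* had 1.13 to 3.82 TPM. Between KO and WT lines 0 genes of these marker lists were called.

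*Tdg* (ENSMUSG00000034674.18; GRCm38, chr10:82629828-82650799, plus strand) encodes thymine DNA glycosylase, the enzyme that removes 5-formylcytosine and 5-carboxylcytosine. The gene lies 19.7 Mb from *Tet1* on the same chromosome. It differs from the other members in having processed copies elsewhere in the genome: of all 50-base windows in its GENCODE M21 transcripts, 35.5% also occur in another gene, against at most 1.68% for the other 9 members. Reads were 50 bases long, so a read from such a window fits more than 1 gene. The deposited counts rest on another GENCODE release. The 4 copies are the processed pseudogenes *Tdg-ps* (chr15:82516311-82519278, plus strand), *Gm9855* (chr10:42054113-42055306, minus strand), *Gm5597* (chr7:76244746-76245938, minus strand) and the short *Gm18293* (chr19:33673329-33673541, minus strand), with 98.65%, 99.24%, 99.33% and 99.0% of their aligned bases identical to the *Tdg* coding sequence.

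A stretch of 90 coding bases, coding positions 1073 to 1162, is shown so that the sequences can be compared. It was chosen as the window with the most differences between *Tdg* and *Tdg-ps* where every copy aligned without a gap. It is therefore not a typical stretch: over all aligned coding bases *Tdg-ps* was 98.65% and *Gm9855* 99.24% identical to *Tdg*. It is read 5′ to 3′ from GRCm38 with GENCODE M21 annotation. In *Tdg* it spans 2 exons between positions 82648028 and 82648616 of chromosome 10. Capitals mark the bases that differ from *Tdg*.
Tdg: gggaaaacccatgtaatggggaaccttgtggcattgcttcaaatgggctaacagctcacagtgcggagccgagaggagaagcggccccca
Tdg-ps: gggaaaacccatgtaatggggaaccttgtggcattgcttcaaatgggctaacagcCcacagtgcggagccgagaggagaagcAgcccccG
Gm9855: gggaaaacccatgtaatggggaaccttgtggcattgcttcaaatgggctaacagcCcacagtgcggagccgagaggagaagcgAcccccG
Gm5597: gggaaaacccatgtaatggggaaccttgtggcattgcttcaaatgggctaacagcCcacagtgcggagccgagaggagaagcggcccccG
Gm18293: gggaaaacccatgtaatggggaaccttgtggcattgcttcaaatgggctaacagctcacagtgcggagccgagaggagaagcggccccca
The first 55 bases are the same in all 5 sequences, and *Gm18293* is the same as *Tdg* over the whole stretch.

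*Tdg* itself had 154.8, 142.7, 212.7 and 174.5 CPM in KO lines, against 119.8, 135.3, 158.3 and 134.9 CPM in WT lines. KO lines averaged 171.2 ± 30.7 CPM and WT lines 137.1 ± 15.9 CPM (SD, n = 4 each). The groups overlapped, because WT17 lay above KO1 and KO9. The log2 fold change, KO over WT, was 0.32 (SE 0.13, 95% interval 0.02 to 0.62), and it did not pass over all genes (edgeR quasi-likelihood test, unadjusted p = 0.0404, Benjamini-Hochberg adjusted p = 0.847). In bulk RNA, fewer cells with a transcript and less of it per cell cannot be told apart.

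The copies divided the lines. *Gm9855* was at 0 counts in all 4 KO lines, against 31.0, 53.6, 0.659 and 43.9 CPM in WT lines. By counting error alone, 0 counts allow up to 0.141, 0.15, 0.156 and 0.219 CPM in these KO lines. That bound does not cover how reads that fit both the copy and *Tdg* were divided. *Tdg-ps* had 0.469, 0, 0.26 and 0.365 CPM in KO lines, against 21.3, 35.5, 0.0942 and 24.2 CPM in WT lines. Both copies thus stood high in WT7, WT12 and WT34, while WT17 was at the level of the KO lines for *Tdg-ps* and close to it for *Gm9855*. *Gm9855* did not pass between KO and WT lines (adjusted p = 0.358 by edgeR), and *Tdg-ps* did not reach the low-count filter. *Gm5597* had reads in KO25 alone (4 counts), and *Gm18293* had 7.12, 6.37, 8.93 and 7.51 CPM in KO lines, against 4.23, 4.17, 7.44 and 5.66 CPM in WT lines.

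Of all reads given to *Tdg* and its 4 copies, *Tdg-ps* and *Gm9855* took 0.289%, 0%, 0.117% and 0.2% in KO lines (95% Wilson intervals reaching at most 0.531%). In WT7 they took 29.6% (28.1% to 31.3%), in WT12 38.98% (37.7% to 40.3%), in WT17 0.453% (0.279% to 0.734%) and in WT34 32.6% (31.0% to 34.4%). These intervals cover counting error only. WT7, WT12 and WT34, where these 2 copies took the most reads, were also the 3 lines with the lowest *Tdg* CPM.

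Adding the copies to *Tdg* turned the direction of the comparison. The sum was 162.4, 149.0, 221.9 and 182.6 CPM in KO lines, against 176.3, 228.6, 166.5 and 208.7 CPM in WT lines, and the groups overlapped. Its log2 fold change, KO over WT, was −0.12 (SE 0.14, 95% interval −0.45 to 0.20, adjusted p = 0.998 by edgeR). This sum was formed after the data had been seen. Whether the reads of the copies come from the copies or from *Tdg* was not tested.

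**Figure D1:**
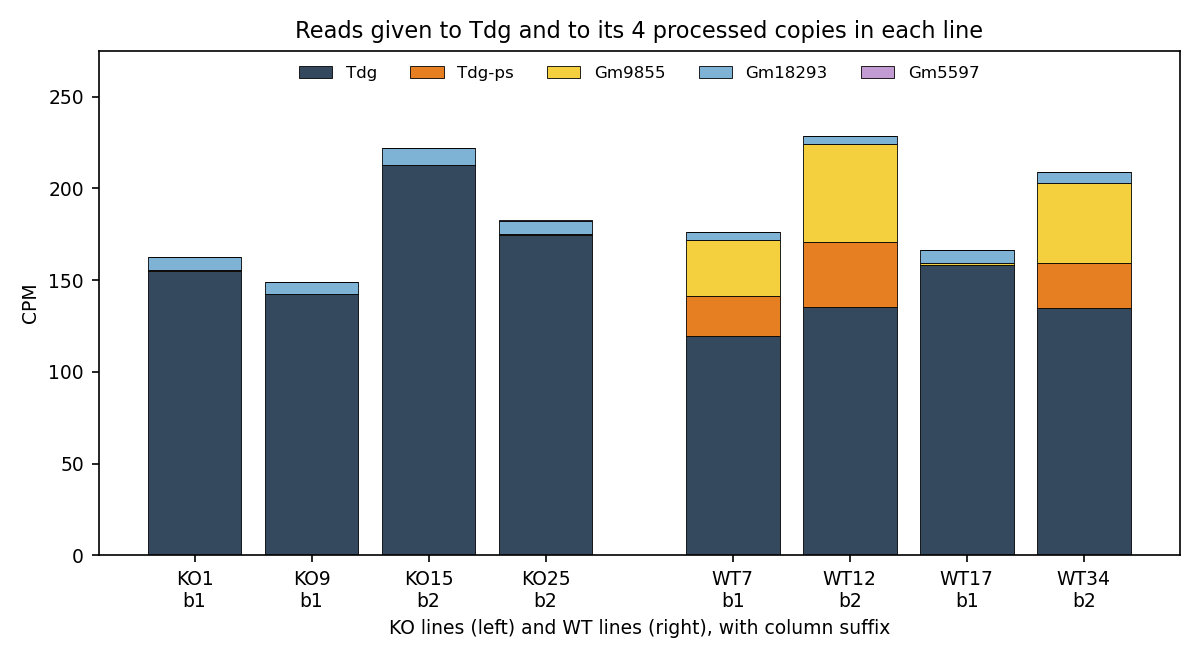
CPM (vertical axis) given to *Tdg* and its 4 processed copies in each of the 8 EpiLC lines, KO lines left of WT lines, stacked so that the height of a bar is their sum. The copies *Tdg-ps* and *Gm9855* are visible in WT7, WT12 and WT34, where they add 52.3 to 89.1 CPM, and are at most 0.754 CPM in the KO lines and WT17.

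On the TPM scale the difference in *Tdg* was larger. *Tdg* had 55.0, 53.1, 77.4 and 67.1 TPM in KO lines, against 28.8, 37.3, 64.5 and 34.7 TPM in WT lines. Every KO line lay above WT7, WT12 and WT34, and WT17 lay among the KO lines. The log2 fold change on the log2(TPM + 1) scale was 0.65 by limma, which did not pass either (unadjusted p = 0.030, adjusted p = 0.977). The length behind the TPM values, recovered from the ratio of count to TPM and scaled on 432 genes with a single transcript, moved with the same lines: about 1273, 1195, 1233 and 1179 bases in KO lines, against about 1823, 1714, 1168 and 1708 bases in WT lines. TPM divides counts by this assigned length and CPM does not, so the scales part where the assigned length differs between lines. With the TPM of *Tdg-ps* and *Gm9855* added, *Tdg* had 55.0, 53.1, 77.4 and 67.2 TPM in KO lines, against 45.1, 67.5, 64.8 and 57.0 TPM in WT lines, and only WT7 lay below all KO lines. *Gm5597* and *Gm18293* were left out of this sum and of later TPM sums of *Tdg* with copies. *Gm18293* had 263.9, 231.9, 327.7 and 278.2 TPM in KO lines, against 150.2, 161.8, 290.6 and 203.5 TPM in WT lines. That is above the TPM of *Tdg* in every line, and a TPM sum with *Gm18293* was not formed.

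*Mbd4*, the methyl-CpG binding glycosylase that removes thymine from T:G mismatches, had 34.9, 37.2, 29.2 and 34.4 CPM in KO lines, against 41.5, 33.2, 44.4 and 28.8 CPM in WT lines. The lowest and the highest value were both in WT lines. The log2 fold change was −0.12 (SE 0.15, adjusted p = 0.998 by edgeR).

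*Smug1*, a glycosylase for uracil and 5-hydroxymethyluracil, had 17.6, 18.8, 12.8 and 14.5 CPM in KO lines, against 17.3, 10.6, 17.6 and 12.5 CPM in WT lines. In both genotypes the lines split by suffix, the b1 lines above the b2 lines. The log2 fold change, KO over WT, was 0.14 (SE 0.20, adjusted p = 0.998 by edgeR).

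The NEIL glycosylases act on oxidized bases, and NEIL1 and NEIL2 can take over the abasic site from TDG. *Neil1* had 8.01, 8.02, 5.09 and 5.84 CPM in KO lines, against 6.49, 4.63, 8.10 and 5.88 CPM in WT lines. *Neil2* had 23.8, 25.7, 7.47 and 12.9 CPM in KO lines, against 23.2, 11.01, 17.2 and 8.001 CPM in WT lines. *Neil3*, which acts on lesions in single-stranded DNA and on interstrand crosslinks, had 13.8, 13.2, 9.39 and 12.0 CPM in KO lines, against 13.7, 13.4, 13.6 and 10.6 CPM in WT lines. All 3 overlapped between genotypes, with log2 fold changes, KO over WT, of 0.11 (SE 0.23), 0.23 (SE 0.42) and −0.09 (SE 0.16), none of which passed (adjusted p = 0.998 by edgeR for each).

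*Apex1*, the main AP endonuclease, had 89.2, 83.1, 159.6 and 91.5 CPM in KO lines, against 91.8, 122.3, 105.7 and 146.2 CPM in WT lines. KO15 lay above all other lines and the other 3 KO lines lay below all 4 WT lines. The log2 fold change was −0.14 (SE 0.22, adjusted p = 0.998 by edgeR), and without KO15 it was −0.41 (unadjusted p = 0.026, adjusted p = 0.599). On the other strand *Pip4p1* covers 61.7% of the exon bases of *Apex1*, and whether the counting used the strand is not stated in the sources used here. *Pip4p1* had 86.6, 105.6, 43.5 and 52.1 CPM in KO lines, against 99.3, 55.1, 93.5 and 48.2 CPM in WT lines, low in the b2 lines, where *Apex1* was mostly high.

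Of the later steps, *Xrcc1*, the scaffold that holds the ligase, had 95.3, 94.3, 88.0 and 74.8 CPM in KO lines, against 96.3, 92.1, 100.5 and 86.7 CPM in WT lines. *Lig3*, the ligase that seals short patches, had 113.7, 106.8, 141.8 and 118.4 CPM in KO lines, against 124.9, 139.5, 122.5 and 120.9 CPM in WT lines. *Parp1* had 864.8, 903.2, 694.2 and 743.3 CPM in KO lines, against 822.5, 673.7, 804.8 and 657.1 CPM in WT lines. These 3 genes varied least, by at most 1.38-fold between the lowest and the highest line, and their log2 fold changes, KO over WT, were −0.09 (SE 0.10), −0.08 (SE 0.10) and 0.12 (SE 0.11; adjusted p = 0.998 by edgeR for each). *Lig3* shares 25.1% of its exon bases with *Rffl* on the other strand.

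Across the family 0 of 10 members were called in KO against WT, where 0.0405% of all 17272 genes tested were called (7 genes), and 0 of 10 members had KO and WT lines that did not overlap in CPM, where 4.19% of all genes did not. DESeq2 (0.409% of genes called) and limma on log2(TPM + 1) (0.0145% of genes called) also called 0 members. *Tdg* was the 1 member at an unadjusted p under 0.05 by edgeR, by DESeq2 and by limma, each without the suffix. With the suffix as a block, 2 members were by edgeR (2057 of 17272 genes), 2 by DESeq2 and 1 by limma, with 0 called. The median log2 fold change of the 10 members was 0.01, 5 positive and 5 negative, beside −0.004 over all genes. The 95% intervals of 9 members lay within a 2-fold difference in either direction, and that of *Neil2* ran from −0.72 to 1.19. A p that misses the threshold does not show equal levels. The intervals come from a fit without the suffix, so they include the spread between b2 and b1 lines.

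**Figure D2:**
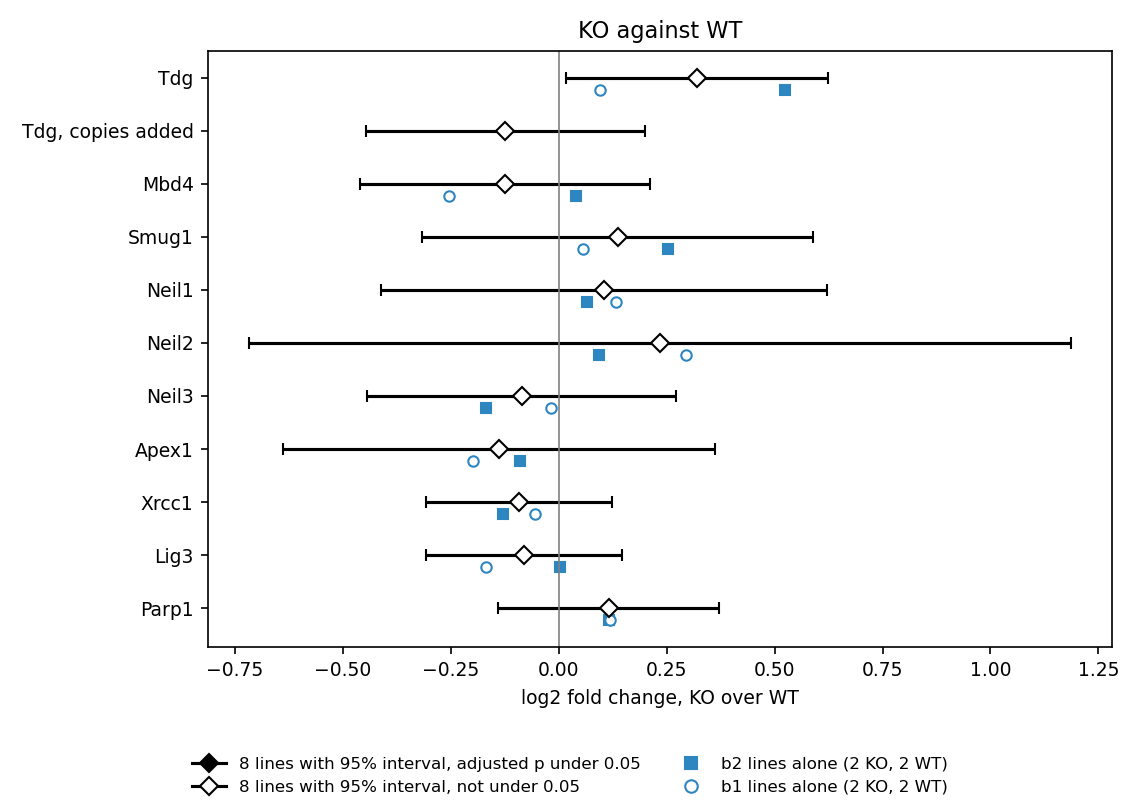
Log2 fold change, KO over WT (horizontal axis), of the 10 members and of *Tdg* with its copies added, with 95% intervals over 8 lines (diamonds, open where the adjusted p is not under 0.05) and the values within b2 (squares) and within b1 (circles). All diamonds are open, and *Tdg* moves from 0.32 to −0.12 once the copies are added.

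Within each suffix, with 2 KO and 2 WT lines, 0 of 10 members were called either (0.0289% of genes called in b2 and 0.109% in b1). *Tdg* as deposited was 0.53 in b2 and 0.10 in b1 (log2 fold change, KO over WT). Whether KO over WT differed between b2 and b1 was tested as an interaction, which called 0 of 10 members by edgeR and by DESeq2 (0% of genes called by edgeR and 0.0057% by DESeq2; 0 members at an unadjusted p under 0.05 by either). The difference for *Tdg*, b2 minus b1, was 0.42 (SE 0.21, 95% interval −0.05 to 0.89, adjusted p = 1.00 by edgeR), and 0.03 (95% interval −0.34 to 0.39) with the copies added. *Mbd4* was 0.04 in b2 and −0.25 in b1, and *Lig3* 0.00 in b2 and −0.17 in b1, so their sign was not the same in both.

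Levels of different genes are compared in TPM. *Parp1* stood highest at 146.1 ± 21.3 TPM (SD, n = 8 lines), followed by *Apex1* at 71.6 ± 18.9, *Tdg* at 52.2 ± 17.3, *Xrcc1* at 41.9 ± 5.12 and *Lig3* at 20.7 ± 2.86 TPM. The remaining glycosylases were all below 10 TPM: *Mbd4* 6.52 ± 1.69, *Neil2* 4.05 ± 1.42, *Neil3* 3.80 ± 0.84, *Smug1* 2.09 ± 0.287 and *Neil1* 1.88 ± 0.526 TPM. *Tdg* made up 72.0%, 72.4%, 86.7% and 79.6% of the summed TPM of the 6 glycosylases in KO lines, against 56.2%, 68.8%, 73.4% and 72.2% in WT lines. With *Tdg-ps* and *Gm9855* counted with *Tdg*, the share was 72.0%, 72.4%, 86.7% and 79.6% in KO lines, against 66.8%, 80.0%, 73.5% and 81.0% in WT lines, and WT12 and WT34 then lay above all KO lines but KO15. All 10 members were at 1 TPM or more in every line, with counts from 80 (*Neil1* in KO25) to 18453 (*Parp1* in KO1).

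Of the 9 pairs of neighbours in this order, 5 differed beyond the spread of the lines in log2 TPM (two-sided exact sign-flip permutation test over 8 lines, Benjamini-Hochberg adjusted over 9 pairs; the smallest p it allows is 0.00781). *Parp1* over *Apex1*, *Xrcc1* over *Lig3*, *Lig3* over *Mbd4* and *Mbd4* over *Neil2* held in 8 of 8 lines (adjusted p = 0.0176 each by this exact test), and *Neil3* over *Smug1* in 7 of 8 lines (adjusted p = 0.0281, exact test). The order was not settled between *Apex1* and *Tdg* (first higher in 5 of 8 lines, exact adjusted p = 0.129), *Tdg* and *Xrcc1* (5 of 8, exact adjusted p = 0.299), *Neil2* and *Neil3* (5 of 8, exact adjusted p = 0.797) and *Smug1* and *Neil1* (6 of 8, exact adjusted p = 0.161). The 3 lines with *Xrcc1* above *Tdg* were WT7, WT12 and WT34, and with the TPM of *Tdg-ps* and *Gm9855* added, *Tdg* lay above *Xrcc1* in 8 of 8 lines (adjusted p = 0.0141 by the exact test). The call of *Neil3* over *Smug1* was lost when any 1 line other than KO15 was left out. Dividing CPM by the total GENCODE M21 exon length instead changed the order, and the neighbours in the new order were tested. This also gave 5 differing pairs, of which 1, *Parp1* over *Apex1*, was among those that differed in TPM. *Lig3* and *Mbd4*, and *Mbd4* and *Neil2*, were no longer neighbours. These pairs were thus not tested per length, but kept their order by mean. On that scale *Apex1* lay above *Tdg* in 8 of 8 lines (exact adjusted p = 0.0141), *Lig3* above *Xrcc1* in 5 of 8 (exact adjusted p = 0.211) and *Smug1* above *Neil3* in 7 of 8 (exact adjusted p = 0.246), and *Neil1* stood above *Neil2*, *Smug1* and *Neil3*.

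**Figure D3:**
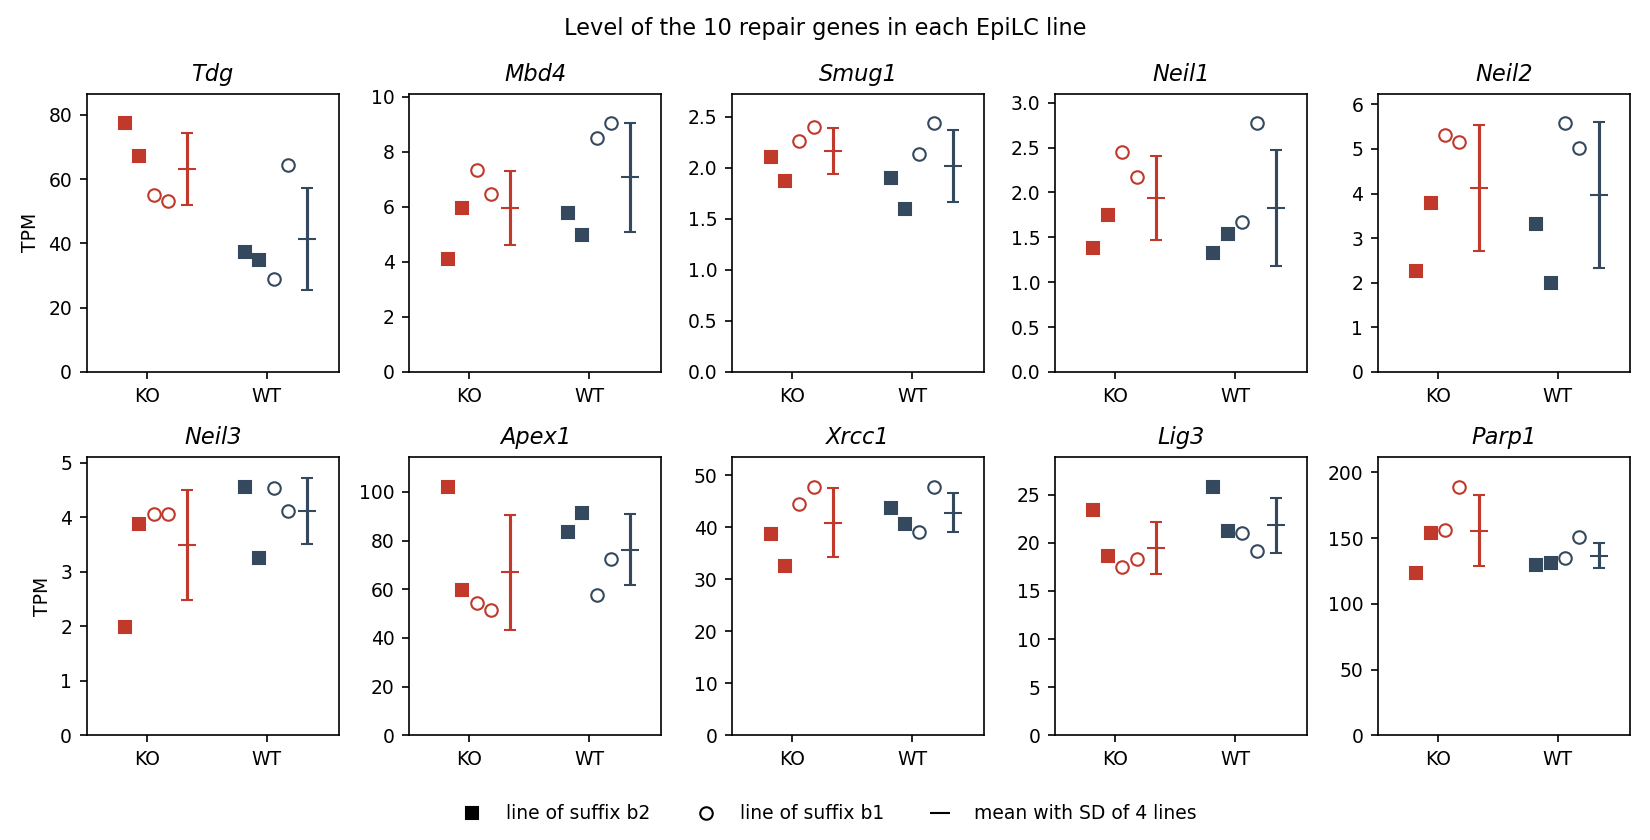
TPM (vertical axis, from 0, with its own range in each panel) of the 10 members in KO and WT EpiLC lines, 1 point per line, filled squares for suffix b2 and open circles for b1, with the mean and SD of 4 lines. *Tdg* is higher in KO lines than in all WT lines but WT17, *Neil2* separates by suffix in both genotypes, and KO15 stands apart in *Apex1* (102.2 TPM) and *Neil3* (1.99 TPM).

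The suffix divided the members where the genotype did not. KO against WT above was tested without the suffix. With the suffix as a block it also called 0 of 10 members, where 28 of 17272 genes were called. With genotype in the model, b2 against b1 called 6 of 10 members, 1 higher and 5 lower, where 24.6% of all genes tested were called (13.7% higher and 11% lower). In 6 of 10 members the b2 and b1 lines did not overlap in CPM, all 6 lower in b2. Over all genes 26.3% did not overlap in either direction, and the share lower in b2 was not counted. The median log2 fold change, b2 over b1, was −0.28 over the members and 0.008 over all genes.

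The glycosylases that fell did so by different amounts. *Neil2* fell most, to 7.47 to 12.9 CPM in b2 lines, against 17.2 to 25.7 CPM in b1 lines (log2 fold change −1.18, SE 0.19, adjusted p = 0.00233 by edgeR). *Smug1* had 10.6 to 14.5 CPM in b2 lines and 17.3 to 18.8 CPM in b1 lines (−0.51, SE 0.11, adjusted p = 0.00786 by edgeR). *Neil1* had 4.63 to 5.88 CPM in b2 lines and 6.49 to 8.10 CPM in b1 lines (−0.52, SE 0.15, adjusted p = 0.0321 by edgeR), and *Mbd4* 28.8 to 34.4 CPM in b2 lines and 34.9 to 44.4 CPM in b1 lines (−0.33, SE 0.10, adjusted p = 0.0358 by edgeR). None of these 4 genes overlapped between the suffixes. *Neil3* did not pass (−0.26, SE 0.13, adjusted p = 0.166 by edgeR).

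*Tdg* did not follow them. As deposited its log2 fold change, b2 over b1, was 0.17 (SE 0.12, adjusted p = 0.326 by edgeR). With the copies added the sum was 182.6 to 228.6 CPM in b2 lines and 149.0 to 176.3 CPM in b1 lines, without overlap, and the log2 fold change of 0.36 (SE 0.07) passed (adjusted p = 0.0072 by edgeR).

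Downstream, *Apex1* rose to a mean of 129.9 ± 29.9 CPM in b2 lines, against 92.5 ± 9.57 CPM in b1 lines (SD, n = 4 each), although KO25 with 91.5 CPM lay among the b1 lines (log2 fold change 0.49, SE 0.15, adjusted p = 0.040 by edgeR). *Pip4p1*, on its other strand, fell by 0.95 on the log2 scale (adjusted p = 2.34e-04 by edgeR). *Parp1* fell to 657.1 to 743.3 CPM in b2 lines, against 804.8 to 903.2 CPM in b1 lines (−0.29, SE 0.05, adjusted p = 0.00374 by edgeR). *Xrcc1* had 74.8 to 92.1 CPM in b2 lines and 94.3 to 100.5 CPM in b1 lines, without overlap, but did not pass (−0.18, SE 0.07, adjusted p = 0.0859 by edgeR), and neither did *Lig3* (0.16, SE 0.08, adjusted p = 0.183 by edgeR).

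The calls of *Neil2*, *Smug1* and *Parp1* held when any 1 line was left out. *Apex1* lost its call without KO1, KO9, KO15, WT7, WT17 or WT34, *Mbd4* without KO9, KO15, WT7, WT17 or WT34, and *Neil1* without KO1, KO9, KO15 or WT17. The number of members called was 3 without KO9 (14.9% of genes called), KO15 (17.7%) or WT17 (18.5%). DESeq2 on all lines called 6 members, where it called 22.4% of genes. On log2(TPM + 1) limma called 2 members, *Mbd4* and *Neil2*, where it called 11.5% of genes. In the KO lines alone *Neil2* was the 1 member called (5.79% of genes called) and in the WT lines alone 0 were (1.54% of genes called; 5 members at an unadjusted p under 0.05).

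**Figure D4:**
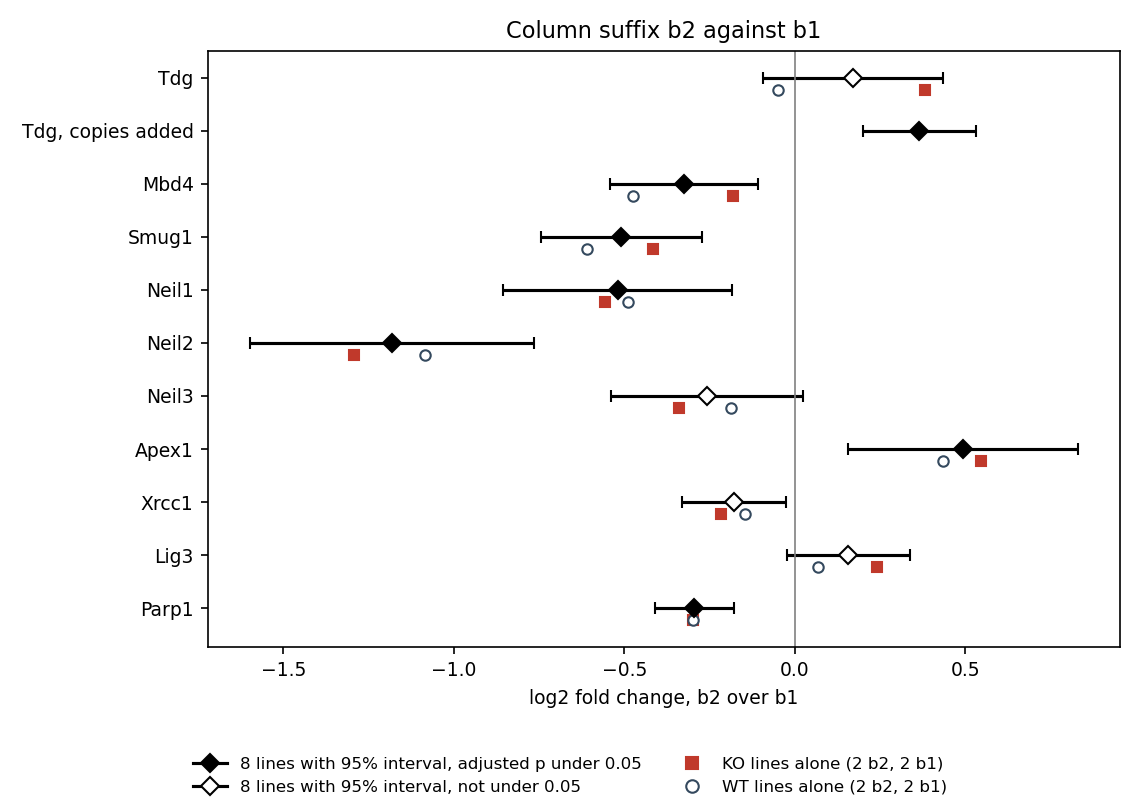
Log2 fold change, b2 over b1 (horizontal axis), of the 10 members and of *Tdg* with its copies added, with 95% intervals over 8 lines (filled diamonds where the adjusted p is under 0.05) and the values in KO lines alone (squares) and WT lines alone (circles). *Neil2* lies farthest left at −1.18, and *Apex1* and the sum of *Tdg* and its copies lie right of 0.

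Other gene lists were compared between b2 and b1 lines, where 24.6% of all genes were called. The summed level of 10 feeder fibroblast markers, most of it *Fn1*, was 76.9 to 90.1 TPM in b2 lines and 98.0 to 114.1 TPM in b1 lines, with 1 of 6 tested markers called lower (*Thy1*) and 1 higher (*Fbn1*), and that of 10 S and G2/M phase genes was 1390 to 1410 TPM in b2 lines and 1247 to 1334 TPM in b1 lines, with 1 of 10 called (*Ccnb1*, higher). Of 8 extraembryonic endoderm markers tested 1 was called higher (*Foxa2*), of 7 germ layer markers tested 2 (*Eomes* and *Sox1*), of 6 EpiLC markers 2 (*Fgf5* and *Pou3f1*) and of 7 naive markers 1 (*Klf2*). Of 10 p53 targets 3 were called higher (*Cdkn1a*, *Mdm2* and *Sesn2*) and 1 lower (*Bbc3*). The shares called in the cell cycle, endoderm and naive lists lay below that of all genes. The part of these lists in the differences of the members was not tested.

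The rest of the pathway was followed in 25 other base excision repair genes, all of which were tested. Between KO and WT lines 0 of 25 were called by edgeR, DESeq2 or limma (which tested 24 of them), 0 of them at an unadjusted p under 0.05 by edgeR, and their median log2 fold change was −0.01. The smallest unadjusted p-values were those of *Parp3*, an ADP-ribosyltransferase at strand breaks, with 0.33 TPM in KO lines and 0.358 TPM in WT lines (log2 fold change −0.52, SE 0.28, adjusted p = 0.961 by edgeR), and *Poll*, a gap-filling polymerase, with 3.15 TPM in KO lines and 2.55 TPM in WT lines (0.32, SE 0.18, adjusted p = 0.967 by edgeR).

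Between the suffixes 10 of the 25 were called, 2 higher and 8 lower in b2, beside 24.6% of all genes. Of 5 other glycosylases 2 fell, *Nthl1*, for oxidized pyrimidines (log2 fold change −0.57, adjusted p = 0.00227 by edgeR), and *Mutyh*, for adenine opposite 8-oxoguanine (−0.46, adjusted p = 0.00524). Of 5 genes of abasic site and end processing, *Apex2*, the second AP endonuclease, was higher (0.55, adjusted p = 0.0159), and *Tdp1*, which clears blocked 3′ ends, did not pass (0.18, adjusted p = 0.0734). Of 10 genes of gap filling and ligation 5 fell, among them *Pold1*, the catalytic subunit of polymerase delta (−0.33, adjusted p = 0.00455), and *Fen1*, the flap endonuclease of the long-patch route, rose (0.59, adjusted p = 0.00162). Of 5 ADP-ribosylation genes *Adprhl2*, a hydrolase that removes ADP-ribose, fell (−0.44, adjusted p = 0.0067), and *Parg* did not pass (0.09, adjusted p = 0.317).

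Upstream of repair, the remaining oxidases did not pass between KO and WT lines: *Tet2* had a log2 fold change of 0.08 (SE 0.39) and *Tet3* of 0.11 (SE 0.34; adjusted p = 0.998 by edgeR for both), against −3.97 (SE 0.17, adjusted p = 2.09e-05) for *Tet1*. In TPM, *Tet1* had 21.59 to 32.01 in KO lines and 60.55 to 91.46 in WT lines. Its approximate transcript length averaged 808.5 bases in KO lines and 4219 bases in WT lines. *Tet3* was higher in b2 lines by 0.99 on the log2 scale (SE 0.10, adjusted p = 2.35e-04 by edgeR), as was *Gadd45g*, a stress-response gene linked to demethylation, by 1.16 (SE 0.20, adjusted p = 0.00352 by edgeR), while its relative *Gadd45b* fell by 0.88 on the log2 scale (SE 0.19, adjusted p = 0.00943 by edgeR). Of the 6 TET and Gadd45 genes 2 were thus called higher and 1 lower in b2.

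As a description over 8 libraries, which share genotype and suffix, the genes whose log2 CPM followed *Tdg* as deposited most closely were *Il1rap* (Pearson r = 0.97), *Ppcdc* (0.964), *Cript* (0.962), *Gulp1* (0.96) and *Anks1* (0.94). After the suffix means were taken out they were *Med6* (0.977), *Ppcdc* (0.969), *Il1rap* (0.967), *Gm10053* (0.966) and *Cript* (0.965). Both sets were picked as the highest among 17272 genes. Correlations with the copies added to *Tdg* were not computed.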

How the data were processed

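RNA of 8 EpiLC lines was sequenced by the authors (KAPA stranded mRNA kit, single-end 50-base reads), trimmed with Trim Galore 0.6.4 and quantified with Salmon 0.14.1 against GENCODE mouse transcripts of a release other than M21; the genome build was mm10. The authors summarized transcripts to genes with tximport and deposited estimated counts per gene, which need not be whole, and TPM per gene, normalized for transcript length and depth. Salmon divides reads that fit several transcripts by probability, which matters for genes with near-identical copies.

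Here the deposited estimated counts were rounded (27.8% of values changed, by at most 0.5). Genes were filtered with filterByExpr in groups of 4, scaled by TMM and tested with the edgeR 4.0.16 quasi-likelihood test in R 4.3.3, two-sided, with Benjamini-Hochberg adjustment over all 17272 genes and a threshold of 0.05. KO against WT used no covariate, b2 against b1 had genotype in the model, and their interaction was fitted with both. Alternatives were DESeq2 1.42.0, limma 3.58.1 on log2(TPM + 1) and log2(TPM + 0.1) for genes with a mean of at least 1 TPM, other scalings and filters, the suffix as a block, each suffix or genotype alone, and each line left out. Adding the reads of the *Tdg* copies, adding the TPM of *Tdg-ps* and *Gm9855*, and DESeq2 and limma with the block were chosen after seeing the data. The tests were checked on simulated counts. Copies, and exon lengths, were taken from GENCODE M21, not from the release behind the counts; copies are genes there that share at least 1% of a member's 50-base windows.

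Named genes were all 10 members, *Tet1*, *Tet2* and *Tet3*, up to 4 genes per other repair list by p in KO against WT and up to 2 by p in b2 against b1, markers that passed a test or were at 0, and the 5 genes most correlated with *Tdg*. The members and lists were chosen with earlier results of these data known.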

Additional observations from a re-analysis of the deposited data

Results flagged for a closer look

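In 4 groups of 4 lines a single line stood far from the other 3, with a gap to its nearest neighbour that exceeded Dixon's 95% critical value as a share of the whole range; 42 groups were looked at, and chance marks about 1 in 20 of them. *Apex1* in KO15 was marked in both units, at 159.6 CPM (gap 0.891 of the range) and 102.2 TPM (0.84), above the other 3 KO lines. *Neil3* in KO15 was marked at 1.99 TPM (0.91), below the other 3 KO lines, and its approximate transcript length there was 2121 bases, against 1410 to 1540 bases in the other KO lines. *Neil3* in WT34 was marked at 10.6 CPM (0.899), below the other 3 WT lines.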

How the results depend on the processing

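No paired analysis was possible because the sources used here do not give which KO and WT lines are littermates, and their line numbers are not shared; the column suffix served as a block instead. KO against WT called 0 of 10 members and 0 of the 25 other repair genes under all 22 alternatives, while the count over all genes, 7, became 96 (DESeq2), 2 (limma, log2(TPM + 1), also with the block), 3 (limma, log2(TPM + 0.1)), 28 (suffix block, also with the *Tdg* copies added), 297 (DESeq2 with the block) and 19 (b1 alone), and ran from 6 to 10 with a line left out. The lowest adjusted p of *Tdg* over these was 0.235. Signs turned, with no call, for *Tdg* with the copies added (−0.12, with the block −0.13), *Mbd4* and *Lig3* in b2 alone (0.041 and 0.0042), and with a line left out for *Neil1* (−0.0195 without WT12 to 0.26 without WT17), *Neil2* (−0.011 without KO9 to 0.53 without WT7) and *Neil3* (−0.16 without WT34 to 0.0186 without KO15). For b2 against b1, members called (6) became 2 with limma at either pseudocount, 1 in KO lines alone and 0 in WT lines alone, and ran from 3 to 7 with a line left out; the other repair genes (10) became 4 with limma and 0 in either genotype alone, and ran from 7 to 13; all genes (4253) became 1587 and 1624 with limma at pseudocounts of 1 and 0.1, 1014 in KO lines alone and 271 in WT lines alone, and ran from 2655 to 4807. *Tdg* was −0.049 in WT lines alone. With library size as the only scaling *Apex1* missed the threshold and *Xrcc1* passed, so that all 6 members called were lower. The interaction called 0 members under every alternative and over all genes 0, against 168 with no filter, 2 with DESeq2, 1 with limma and 0 to 8 with a line left out. The order of levels had 4 to 5 differing pairs with a line left out; 4 of the 5 pairs differed in each case, and *Neil3* over *Smug1* only without KO15. It had 6 with the TPM of *Tdg-ps* and *Gm9855* added to *Tdg*. Fits within a suffix or genotype rest on 4 lines. Depth limits *Neil1* most, with 80 to 172 counts per line. The causes of these changes were not tested.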
